A study of Mus musculus with 9 samples.

Results

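The CC chemokines described here were 10 genes picked by symbol, Ccl2, Ccl3, Ccl4, Ccl5, Ccl6, Ccl7, Ccl8, Ccl9, Ccl12 and Ccl24, out of 24346 gene symbols measured by RNA sequencing. All 10 were found, and 9 of them were tested, since a gene entered the test only where no fewer than 3 of the 9 samples reached an FPKM of 1. FPKM counts the fragments of a transcript per kilobase of its length, at a fixed number of mapped fragments. The 3 groups compared were macrophage populations sorted from the lungs of female C57BL/6 mice at postnatal week 10, with 3 samples each from separate mice. Ctrl-AM were alveolar macrophages (AMs) of mice whose left lung had received vehicle. Tumor-AM were AMs of mice whose left lung had received LLC cells (Lewis lung carcinoma, a line that came from a C57BL/6 mouse), which expressed the fluorescent protein tdTomato. Tumor-macrophage were the tumor-associated macrophages (TAMs) of such mice. All cells were sorted as CD45+ and autofluorescent. AMs were Siglec-F+, F4/80+, CD11c+ and CD11b-, and TAMs were Siglec-F-, F4/80+ and CD11b+, so both populations of tumor-bearing mice came from whole digested lung and were told apart by their surface markers only. Control and tumor-bearing mice were bred separately, so housing and tumor cannot be told apart. The study's methods do not say whether Tumor-AM and Tumor-macrophage samples of 1 number came from 1 mouse.

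CC chemokines are small secreted proteins that draw leukocytes along a gradient by binding G protein-coupled receptors on the target cell. The inflammatory members are made on stimulation, largely through NF-kappaB and interferon signalling, whereas a few are made constantly by resident macrophages. In tumors, ligands of CCR2 are known for drawing monocytes out of the blood, where they become macrophages, and other members for drawing T cells, natural killer (NK) cells and further macrophages. AMs are long-lived resident cells of the airspace, and TAMs of the lung are held to derive in large part from monocytes.

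The label of each population was compared with its marker genes. Tumor-macrophage fell below both AM groups in all 12 AM markers and rose above them in all 8 TAM markers (limma, adjusted p below the threshold of 0.05 for each). Over all tested genes, 24.4% fell and 24.2% rose from Tumor-AM, and 27.1% and 27.7% from Ctrl-AM. Siglecf and Itgax (CD11c) of the AM list and Itgam (CD11b) of the TAM list encode proteins that defined the populations, so they are no independent check. Siglecf ran from 164.0 to 209.0 FPKM in the 6 AM samples and from 0.456 to 0.835 FPKM in Tumor-macrophage. The 12 T and NK cell markers summed to between 9.71 and 29.98 FPKM in the AM samples and to between 35.8 and 69.4 FPKM in Tumor-macrophage. Estimated depth ran from 10200000 to 12900000 reads. At this depth, 1 read on a transcript of 1 kb was worth between 0.0775 and 0.0976 FPKM, a precision that covers counting error only. These were bulk samples, in which fewer cells of a type and less RNA per cell cannot be told apart.

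In both AM groups Ccl6 made up nearly the whole summed level of the CC chemokine genes, while Ccl3, Ccl9 and Ccl4 were also expressed at lower levels, and in TAMs the sum was spread over more genes. The FPKM of the 10 genes summed to 7064 ± 319.7 for Ctrl-AM, 8695 ± 984.7 for Tumor-AM and 7718 ± 713.5 for Tumor-macrophage (SD, n = 3 each), and the ranges of Tumor-macrophage and of both AM groups overlapped. The make-up of this sum differed. Of this sum Ccl6 held 97.4% for Ctrl-AM and 97.5% for Tumor-AM, and it held 15.8% for Tumor-macrophage, where its share ran from 12.6% to 19.9%. The share of Ccl8 was 0.0225% for Ctrl-AM, 0.117% for Tumor-AM and 51.3% for Tumor-macrophage, with a range there from 47.0% to 58.3%. The scaling of short transcripts enters such comparisons between genes. A read on Ccl8 was worth 1.55 times, and a read on Ccl12 1.51 times, the FPKM that the full length of the transcript gives, and this factor was not measured for Ccl6 and Ccl2. Divided by it, Ccl8 was at 2639, 2561 and 2407 FPKM in Tumor-macrophage, still above the undivided Ccl6 of each sample. Without Ccl6 and Ccl8, the other members summed to 181.7 FPKM (Ctrl-AM), 202.5 FPKM (Tumor-AM) and 2549 FPKM (Tumor-macrophage).

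**Figure D1:**
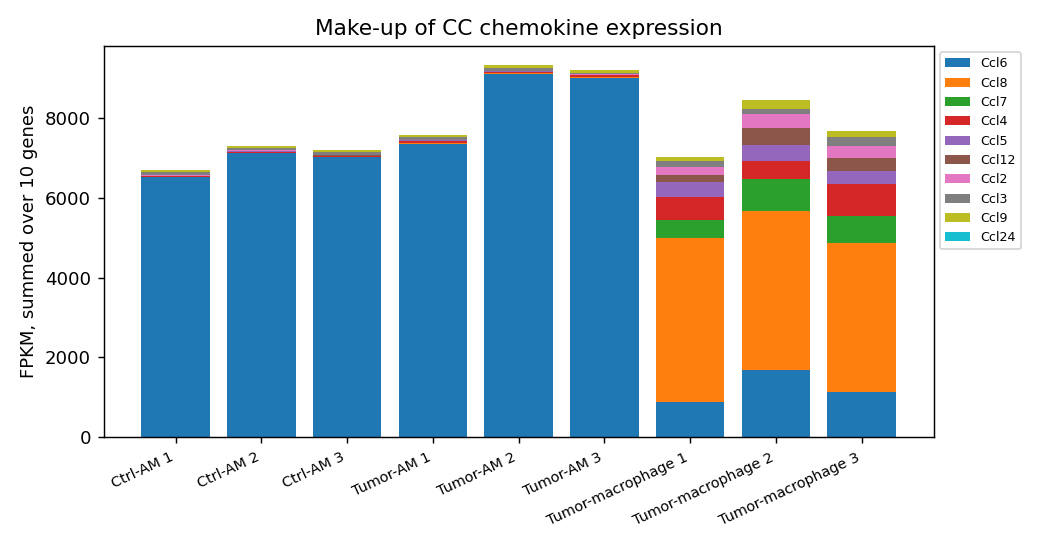
Summed FPKM (vertical axis, linear, from 0) of the 10 CC chemokine genes in each of the 9 samples (horizontal axis), with a colour for each gene. In all 6 AM samples nearly the whole bar is Ccl6, whereas the 3 Tumor-macrophage bars are of like height and Ccl8 holds between 47.0% and 58.3% of them.

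Ranked among all 24346 symbols by FPKM, Ccl6 stood at place 7 or 8 in every AM sample and between places 45 and 79 in Tumor-macrophage. Ccl8 stood at place 19 in all 3 Tumor-macrophage samples and between places 3655 and 10290 in the AM samples. In Ctrl-AM the order of mean FPKM was Ccl6, Ccl3, Ccl9, Ccl4, Ccl5, Ccl2, Ccl7, Ccl8, Ccl12 and Ccl24, and only the neighbours Ccl5 and Ccl2 and the neighbours Ccl8 and Ccl12 overlapped in range. In Tumor-AM it was Ccl6, Ccl9, Ccl3, Ccl4, Ccl5, Ccl2, Ccl8, Ccl7, Ccl12 and Ccl24, and the neighbours from Ccl9 to Ccl4 and from Ccl5 to Ccl12 overlapped. In Tumor-macrophage it was Ccl8, Ccl6, Ccl7, Ccl4, Ccl5, Ccl12, Ccl2, Ccl3, Ccl9 and Ccl24. There, Ccl8 lay apart from Ccl6 and Ccl6 from Ccl7, Ccl7 overlapped Ccl4, each neighbour from Ccl5 to Ccl9 overlapped the next, and Ccl24 lay below them all.

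All but 1 of the 10 genes lie in 2 groups on chromosome 11 (GRCm38, GENCODE vM21 annotation). Ccl2, Ccl7, Ccl12 and Ccl8 follow each other on the plus strand within 81.2 kb, from 82035571 to 82116799. The second group lies 1409 kb further on, from 83525778 to 83664683, and holds Ccl5, Ccl9, Ccl6 and Ccl3 on the minus strand and Ccl4 on the plus strand. Ccl24 lies alone on chromosome 5, from 135569937 to 135573049. Identity of the coding sequences over the alignment ran from 44.9% to 64.7% within the first group, from 45.3% to 68.1% within the second and from 38.5% to 56.8% between members of different groups. The closest pairs were Ccl3 and Ccl4, Ccl7 and Ccl8, and Ccl6 and Ccl9. No stretch of 75 bases, the length of the reads, in the main transcript of any member occurred in the transcripts of another gene.

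Ccl8, Ccl7 and Ccl12 of the first group had the largest log2 changes in TAMs among the 9 tested members. Promoter sequences were at hand for Ccl3, Ccl6, Ccl8, Ccl9 and Ccl12 only, so Ccl7 and the other members were not searched. Shown are the 250 bases before the start of Ccl8 and of Ccl12, both higher in TAMs, and of Ccl6, the leading gene of AMs. Sequences are from RefSeq (GRCm38.p6), each on the strand of its gene, 5′ to 3′. Capitals mark TATAAA, the TATA box motif, and GAGGAA or its reverse complement TTCCTC, the core letters bound by PU.1, a transcription factor active in macrophages.
Ccl8, chr11:82114935-82115184, plus strand: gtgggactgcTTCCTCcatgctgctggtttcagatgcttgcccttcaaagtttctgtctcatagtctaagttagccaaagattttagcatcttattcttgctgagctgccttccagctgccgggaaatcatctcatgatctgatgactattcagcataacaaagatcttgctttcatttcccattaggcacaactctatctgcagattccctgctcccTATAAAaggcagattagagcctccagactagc
Ccl12, chr11:82101595-82101844, plus strand: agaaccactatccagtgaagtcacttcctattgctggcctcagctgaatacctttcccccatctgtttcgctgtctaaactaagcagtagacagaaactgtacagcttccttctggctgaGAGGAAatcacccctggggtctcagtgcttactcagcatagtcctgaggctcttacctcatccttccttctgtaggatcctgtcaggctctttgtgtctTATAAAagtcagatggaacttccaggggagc
Ccl6, chr11:83593088-83593337, minus strand: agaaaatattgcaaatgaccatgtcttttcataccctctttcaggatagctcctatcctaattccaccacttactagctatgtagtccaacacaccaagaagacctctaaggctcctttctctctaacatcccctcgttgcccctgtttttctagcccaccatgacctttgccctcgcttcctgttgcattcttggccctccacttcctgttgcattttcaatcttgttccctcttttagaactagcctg
TATAAA began 32 bases before the start of Ccl8 and 31 bases before that of Ccl12. On the gene's own strand and starting between -35 and -25, a window chosen after these were seen, it was present in 1.75% of 32851 mouse promoters of 300 bases (250 before the start and 50 after it). GAGGAA lay on the reverse strand at -240 to -235 of Ccl8 and on the gene's strand at -130 to -125 of Ccl12, and 28.3% of all promoters held it on either strand. Ccl3 held it at -33 to -28 on the reverse strand, and Ccl9 held TATAAA on its own strand at -92 to -87, overlapping a reverse match at -94 to -89, a further reverse match at -224 to -219, and TGAATCA, which has the AP-1 letters TGANTCA, at -53 to -47. The letters searched also included a kappaB motif for NF-kappaB (1.47% of promoters), an interferon-stimulated response motif (3.44%) and TTCNNNGAA for STAT factors (8.3%), on both strands, and TGANTCA and TATAAA anywhere in the window stood in 7.81% and 13.6% of promoters. The kappaB, interferon and STAT letters stood in none of the windows searched, those of Ccl3, Ccl6, Ccl8, Ccl9 and Ccl12. The window of Ccl6 held none of the letters searched. A match is a description of the sequence only.

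Ccl2, the main ligand of CCR2 on monocytes, was at 13.2, 9.78 and 9.79 FPKM in Ctrl-AM 1 to 3, at 7.81, 14.0 and 12.3 FPKM in Tumor-AM 1 to 3, and at 189.5, 357.1 and 307.7 FPKM in Tumor-macrophage 1 to 3. The AM groups overlapped and every Tumor-macrophage sample lay above them. Its log2 change, on the scale of log2(FPKM + 1) used throughout, was 4.52 ± 0.25 from Tumor-AM to Tumor-macrophage (SE, limma adjusted p = 1.25e-07) and 4.55 from Ctrl-AM (adjusted p = 8.54e-08).

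Ccl7, another ligand of CCR2, was at 5.23, 3.86 and 7.97 FPKM in Ctrl-AM, at 2.05, 6.34 and 4.45 FPKM in Tumor-AM, and at 450.9, 819.1 and 682.4 FPKM in Tumor-macrophage. It was thus lower than Ccl2 in mean FPKM in both AM groups and higher than Ccl2 in every Tumor-macrophage sample. Its log2 change to Tumor-macrophage was 7.0 ± 0.33 from Tumor-AM (limma adjusted p = 4.41e-08) and 6.61 from Ctrl-AM (adjusted p = 4.41e-08).

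Ccl12, a CCR2 ligand found in mice, was at 0.496, 1.52 and 1.74 FPKM in Ctrl-AM, at 0.791, 4.62 and 1.34 FPKM in Tumor-AM, and at 185.1, 415.6 and 321.5 FPKM in Tumor-macrophage. It was near the limit of detection in AMs, where the values stood for 2, 7 and 8 reads in Ctrl-AM and for 3, 19 and 6 reads in Tumor-AM. In TAMs it reached the range of Ccl2, although divided by the factor for short transcripts it was at 122.8, 275.6 and 213.2 FPKM, below the undivided Ccl2 of each sample. Its log2 change to Tumor-macrophage was 6.67 ± 0.42 from Tumor-AM (limma adjusted p = 3.55e-07) and 7.07 from Ctrl-AM (adjusted p = 1.72e-07). Together these 3 CCR2 ligands summed to a mean of 17.9 FPKM in each AM group and of 1243 FPKM in Tumor-macrophage.

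Ccl8, a monocyte chemoattractant protein by sequence, was at 0.806, 1.18 and 2.83 FPKM in Ctrl-AM, at 3.14, 10.3 and 18.3 FPKM in Tumor-AM, and at 4096, 3975 and 3735 FPKM in Tumor-macrophage. The 3 groups did not overlap. The Tumor-macrophage samples were the most even of any member, with a coefficient of variation of 4.66%, while the highest Tumor-AM sample stood well above the lowest. The log2 change from Tumor-AM to Tumor-macrophage was 8.67 ± 0.46 (limma adjusted p = 9.80e-08).

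Ccl11, an eosinophil attractant that lies between Ccl7 and Ccl12 (chromosome 11, 82057823 to 82062955), did not share these levels. It is no member and was at 0.506 FPKM or less in all 9 samples, with a mean of 0.0646 FPKM in Tumor-macrophage.

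Ccl5, Ccl4 and Ccl3 also rose in TAMs, and by unequal amounts. Ccl5, which attracts T cells and NK cells, was at 6.30, 18.1 and 12.6 FPKM in Ctrl-AM, at 17.4, 13.1 and 10.6 FPKM in Tumor-AM, and at 380.5, 421.5 and 323.5 FPKM in Tumor-macrophage. The AM groups overlapped and Tumor-macrophage lay apart. Its log2 change was 4.69 ± 0.30 from Tumor-AM (limma adjusted p = 3.46e-07). T and NK cells also make Ccl5, and the sum of their 12 markers was highest in Tumor-macrophage 3 (69.4 FPKM) and lowest in Tumor-macrophage 2 (35.8 FPKM), the samples with the lowest and the highest Ccl5, respectively. The part of these cells in the level of Ccl5 was not tested.

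Ccl4 was at 18.4, 31.3 and 22.0 FPKM in Ctrl-AM, at 55.7, 32.1 and 43.0 FPKM in Tumor-AM, and at 575.7, 434.1 and 785.6 FPKM in Tumor-macrophage. The 3 groups did not overlap, although Ctrl-AM 2 and Tumor-AM 2 nearly met. Its log2 change from Tumor-AM to Tumor-macrophage was 3.74 ± 0.25 (limma adjusted p = 6.08e-07). Ccl3, its neighbour on the opposite strand, was at 81.1, 66.4 and 78.5 FPKM in Ctrl-AM, at 72.5, 64.1 and 45.7 FPKM in Tumor-AM, and at 158.7, 117.4 and 220.1 FPKM in Tumor-macrophage. Its AM groups overlapped, and its log2 change to Tumor-macrophage was 1.41 ± 0.22 (limma adjusted p = 0.000321). Ccl3 exceeded Ccl4 in every AM sample, and Ccl4 exceeded Ccl3 in every Tumor-macrophage sample.

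The CCR1 ligands Ccl6 and Ccl9, a pair found in rodents, moved in opposite directions between the populations although they lie side by side in the second group. Ccl6 was at 6520, 7114 and 7008 FPKM in Ctrl-AM, at 7353, 9100 and 8993 FPKM in Tumor-AM, and at 887.5, 1678 and 1135 FPKM in Tumor-macrophage. It was the only member that fell from Tumor-AM to Tumor-macrophage, with a log2 change of -2.82 ± 0.19 (limma adjusted p = 6.04e-07), and no groups overlapped. Even so it remained the second most abundant member there. Ccl9 was at 54.9, 55.7 and 45.6 FPKM in Ctrl-AM, at 48.2, 84.6 and 65.9 FPKM in Tumor-AM, and at 103.1, 223.2 and 161.7 FPKM in Tumor-macrophage. It rose by a log2 change of 1.25 ± 0.26 from Tumor-AM to Tumor-macrophage (limma adjusted p = 0.00234), the smallest change among the 9 tested members.

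Ccl24, an attractant of eosinophils through CCR3, did not pass the filter for testing. It was at 0.0753, 0.132 and 0.330 FPKM in Ctrl-AM, at 0, 0.738 and 0.135 FPKM in Tumor-AM, and at 1.33, 12.2 and 0.371 FPKM in Tumor-macrophage. These values stood for 1, 2 and 5 reads, for 0, 10 and 2 reads, and for 16, 153 and 5 reads. A single sample, Tumor-macrophage 2, thus held 78.9% of its 194 reads. Of 9 markers of eosinophils, basophils and mast cells, 3 were highest in that same sample, among them Cpa3, a mast cell protease, at 6.96 FPKM against 1.8 and 3.73 FPKM. A further 3 were lowest there, and Epx, a defining eosinophil marker, was listed at 0 in all Tumor-macrophage samples. The part of such cells in Ccl24 was not tested. With no filter, its log2 change from Tumor-AM to Tumor-macrophage was 1.47 (limma adjusted p = 0.176).

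**Figure D2:**
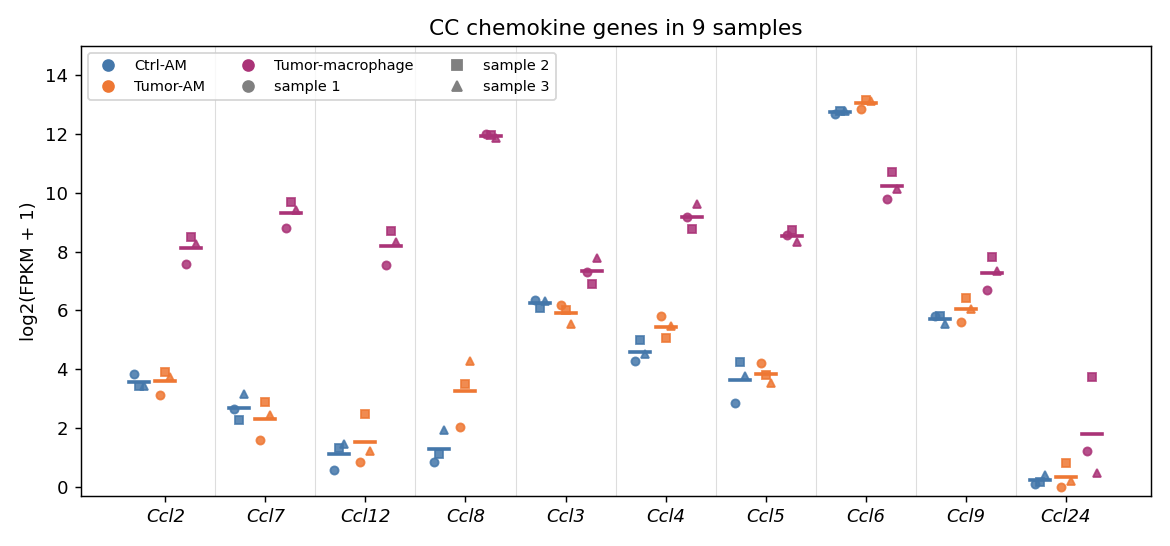
Expression of the 10 CC chemokine genes (horizontal axis) as log2(FPKM + 1) (vertical axis) in the 9 samples. Colours mark the groups, symbols the samples of a group and bars the group means. For all genes but Ccl6 and Ccl24 the 3 Tumor-macrophage samples lie above the 6 AM samples, for Ccl6 they lie below, and for Ccl24 a single Tumor-macrophage sample stands out.

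From Tumor-AM to Tumor-macrophage, 8 of the 9 tested members thus rose and 1 fell, where 48.6% of the 10686 tested genes passed the threshold, 24.2% upward and 24.4% downward. None of the 9 overlapped between the groups, 8 upward and 1 downward, where 55.3% of all tested genes did not, 27.6% upward and 27.8% downward. Their median log2 change was 4.52, against 0.00117 over all genes tested. From Ctrl-AM to Tumor-macrophage, again 8 rose and 1 fell, where 54.8% of all genes passed, 27.7% upward and 27.1% downward. None overlapped, where 62.3% of all genes did not, 31.1% in each direction, and the median was 4.58 against -0.00824. There Ccl8 had a log2 change of 10.64 (limma adjusted p = 1.57e-08), Ccl5 of 4.92 (adjusted p = 1.81e-07) and Ccl4 of 4.58 (adjusted p = 9.80e-08). Ccl9 had a change of 1.56 (adjusted p = 0.000464), Ccl3 of 1.08 (adjusted p = 0.00167) and Ccl6 of -2.53 (adjusted p = 1.15e-06). The comparisons share their Tumor-macrophage samples, so they are not independent.

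The comparison of Tumor-AM with Ctrl-AM set AMs of tumor-bearing mice against AMs of control mice, which were bred separately. Here 1 of the 9 tested members passed the threshold, Ccl8, where 10.3% of all tested genes passed, 7.11% upward and 3.18% downward. The median log2 change of the members was 0.30, against 0.0142 over all genes. Ccl8, Ccl4 and Ccl6, 3 members in all, did not overlap between the groups, each higher in every Tumor-AM sample than in any Ctrl-AM sample, where 32.3% of all genes did not overlap, 18.9% upward and 13.4% downward.

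Ccl8 rose by a log2 change of 1.97 ± 0.46 (limma adjusted p = 0.0239), with a 95% interval from 0.95 to 2.99. The mean went from 1.60 ± 1.08 to 10.6 ± 7.59 FPKM (SD, n = 3 each), on 3, 5 and 12 reads in Ctrl-AM against 11, 39 and 76 reads in Tumor-AM. The call was lost on leaving out any of 4 samples, with an adjusted p of 0.0958 without Ctrl-AM 1, 0.0757 without Ctrl-AM 2, 0.0669 without Tumor-AM 2 and 0.0645 without Tumor-AM 3.

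The rise of Ccl8 ran beside that of several TAM markers. C1qa, a complement subunit that TAMs express at 2171 FPKM, measured 1.21, 3.18 and 3.43 FPKM in Ctrl-AM against 8.21, 7.39 and 13.8 FPKM in Tumor-AM (limma adjusted p = 0.00440). Of the 8 TAM markers 5 rose and none fell, where 7.11% of all tested genes rose and 3.18% fell. Adgre1 did not pass and was lower in every Tumor-AM sample than in any Ctrl-AM sample. Tumor-AM 3, the highest for Ccl8 and C1qa, also had the highest sum of the 8 markers of stroma and endothelium, of which 7 were highest there. They summed to 15.3, 9.16 and 52.8 FPKM in Tumor-AM 1 to 3 and to between 6.42 and 9.32 FPKM in Ctrl-AM. Col3a1 and Dcn, at 21.0 and 25.7 FPKM, made up most of the sum in Tumor-AM 3. Col1a1, Col1a2 and the endothelial markers Pecam1, Cdh5 and Kdr had lower means in Tumor-AM than in Ctrl-AM. The part of TAM or stromal RNA in the Ccl8 of Tumor-AM was not tested. Set against the mean of Tumor-macrophage, Tumor-AM held 0.269% of its Ccl8, 0.657% of its Ccl7 and 0.732% of its Ccl12. For the TAM markers this share ran from 0.451% for C1qa and 0.844% for Cx3cr1 to 30.5% for Adgre1, the gene of F4/80, which both sorts required. Ccl5 stood at 3.65%, Ccl2 at 4.0%, Ccl4 at 7.28%, Ccl3 at 36.7% and Ccl9 at 40.7%. Of these 8 members only Ccl8 stood at a lower share than C1qa.

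In the other direction, Tumor-macrophage held 14.5% of the Ccl6 of Tumor-AM. Of the 12 AM markers, 8 were at lower shares, among them Krt79 at 0.0814%, Siglecf at 0.380%, Car4 at 0.640% and Chil3 at 0.901%. The 4 at higher shares were Itgax at 21.2%, Fabp4 at 23.7%, Siglec1 at 42.1% and Mrc1 at 51.2%.

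**Figure D3:**
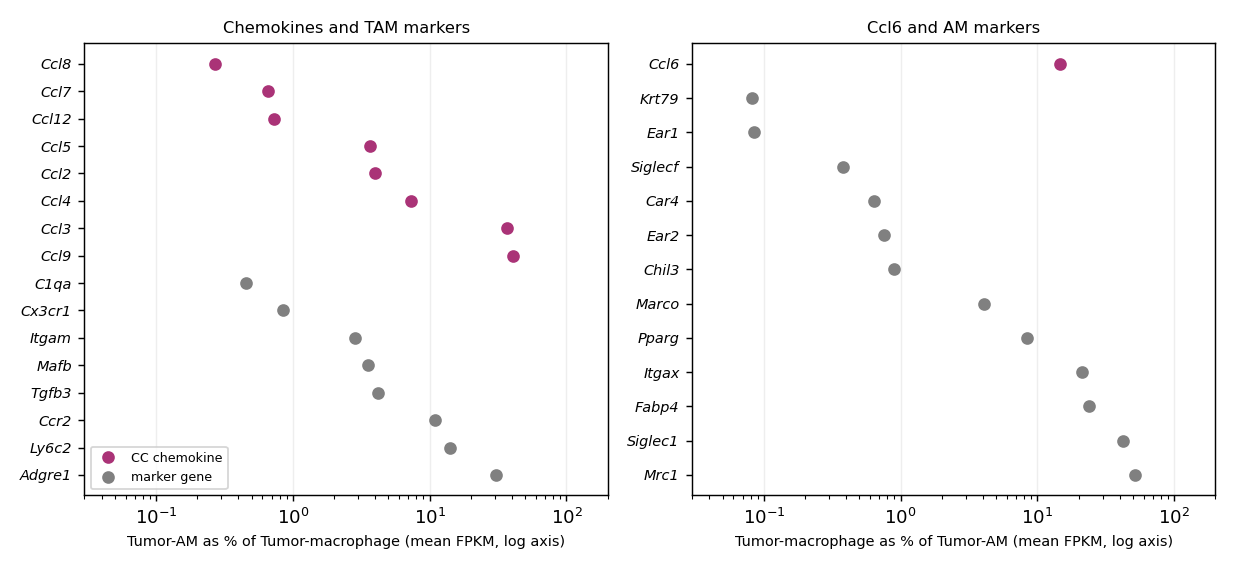
Left, mean FPKM in Tumor-AM as a percent of that in Tumor-macrophage (horizontal log axis) for 8 CC chemokines and 8 TAM markers. Right, mean FPKM in Tumor-macrophage as a percent of that in Tumor-AM for Ccl6 and 12 AM markers. Ccl8, at 0.269%, lies to the left of every TAM marker, and Ccl6, at 14.5%, lies to the right of 8 of the 12 AM markers.

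Ccl4 missed the threshold, with a log2 change of 0.84 ± 0.25 (limma adjusted p = 0.0649) and a 95% interval from 0.28 to 1.41. Its mean was 23.9 ± 6.65 FPKM in Ctrl-AM and 43.6 ± 11.8 FPKM in Tumor-AM (SD, n = 3 each). It passed without Ctrl-AM 2 (adjusted p = 0.0463), without Tumor-AM 2 (adjusted p = 0.0412) and without Tumor-macrophage 2 (adjusted p = 0.0447). Ccl6, with a mean of 6881 ± 316.8 against 8482 ± 979.1 FPKM, had a log2 change of 0.30 ± 0.19 (adjusted p = 0.388) and an interval from -0.13 to 0.72.

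For the other members the groups overlapped, and the intervals show what size of change these samples leave room for. The log2 change was 0.03 for Ccl2 (limma adjusted p = 0.962), with an interval from -0.52 to 0.58, and -0.33 for Ccl3 (adjusted p = 0.405), with an interval from -0.81 to 0.16. For Ccl5 it was 0.22 (adjusted p = 0.705), from -0.44 to 0.88, and for Ccl9 it was 0.31 (adjusted p = 0.520), from -0.27 to 0.89. The widest intervals belonged to Ccl8 and to Ccl7 and Ccl12, which were low in AMs. Ccl7 had a change of -0.39 (adjusted p = 0.530), with an interval from -1.12 to 0.35, and Ccl12 of 0.39 (adjusted p = 0.629), with an interval from -0.54 to 1.33.

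**Figure D4:**
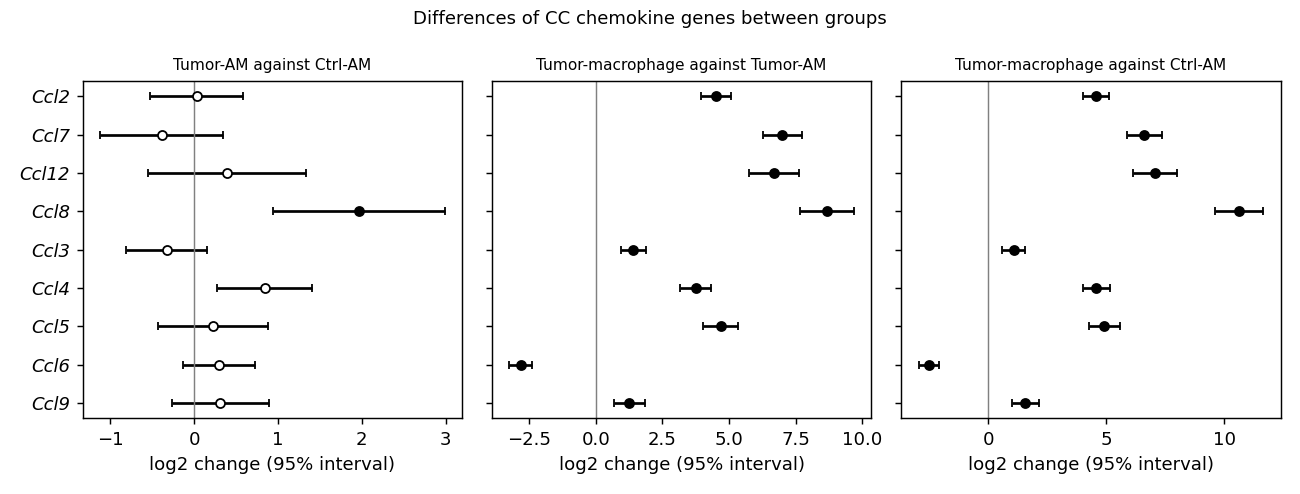
Log2 change on the log2(FPKM + 1) scale (horizontal axes, which differ between panels) with its 95% interval for the 9 tested CC chemokine genes in the 3 comparisons. Filled points passed an adjusted p of 0.05 in limma and open points did not. Only Ccl8 is filled for Tumor-AM against Ctrl-AM, whereas all 9 are filled in both other panels, with Ccl6 alone to the left of 0.

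The samples of a population differed among themselves in a way that the members shared in part. In Tumor-macrophage, Ccl2, Ccl6, Ccl7, Ccl9 and Ccl12 were highest in sample 2 and lowest in sample 1, and in Tumor-AM the same 5 genes were also highest in sample 2 and lowest in sample 1. Over all 10686 tested genes, 4.65% had this order in both populations. Ccl12 varied most in Tumor-AM, where sample 2 held 4.62 FPKM against 0.791 and 1.34 FPKM. Ccl3 and Ccl4 had another order in Tumor-macrophage, highest in sample 3 and lowest in sample 2. Tumor-macrophage 2 also had the lowest sums of T and NK cell, B cell and dendritic cell markers (35.8, 48.9 and 25.6 FPKM), with 9 of 12, 6 of 6 and 5 of 7 markers lowest there. So were 5 of 8 stromal and endothelial and 5 of 7 neutrophil markers, and the other 2 neutrophil markers were at 0 in all 3 Tumor-macrophage samples. In Tumor-AM 2, 11 of 12 T and NK cell, 4 of 6 B cell and 5 of 7 dendritic cell markers were lowest. There, 8 of 8 stromal and endothelial markers but only 1 of 7 neutrophil markers were lowest. Over all tested genes, 36.2% were lowest in Tumor-macrophage 2 among its group and 34.9% in Tumor-AM 2, so the smaller counts lie nearer to the general share. AM markers had no common order in Tumor-macrophage 2, where 4 of the 12 were highest and 4 were lowest. Among the former was Chil3, at 430.4 FPKM against 128.5 and 150.2 FPKM. The part of such cells in these orders was not tested, and the pattern was noticed in these data and is given without a test.

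**Figure D5:**
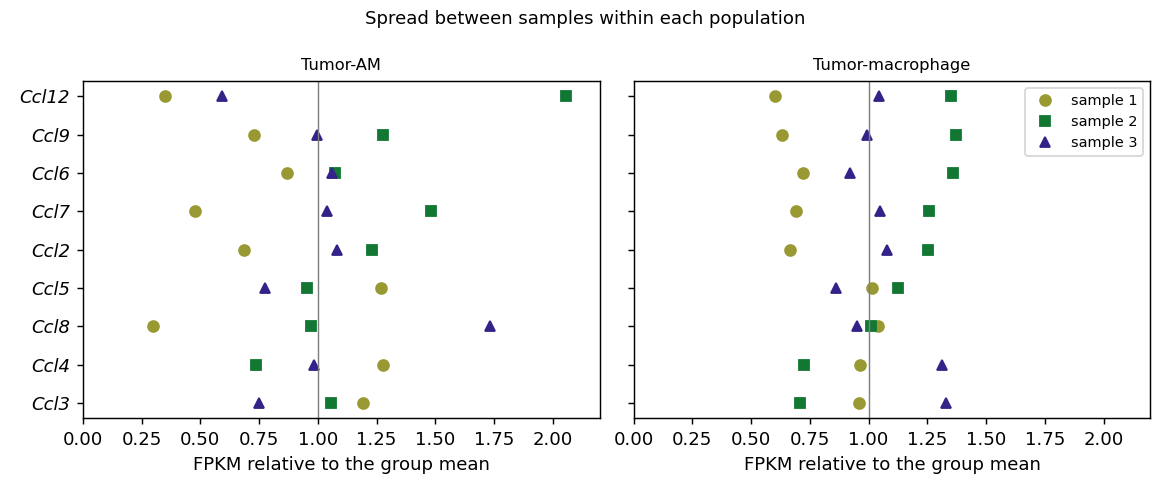
FPKM of each sample relative to the mean of its group (horizontal axis, linear; 1 is the mean) for the 9 tested CC chemokine genes in Tumor-AM (left) and Tumor-macrophage (right). Symbols mark the 3 samples. In both panels sample 2 lies highest and sample 1 lowest for Ccl12, Ccl9, Ccl6, Ccl7 and Ccl2, whereas Ccl8 is tight in Tumor-macrophage and wide in Tumor-AM.

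Among all tested genes, those with profiles most like a member over the 9 samples were found by the root mean square difference of centred log2 values, in log2 units. Ccl7 and Ccl12 were each other's closest gene, at 0.47. For Ccl8 the closest were the complement genes C1qa at 0.73, C1qc at 0.76 and C1qb at 0.84. The other members had closer matches. Ccl9 was most like Raet1d at 0.17, Ccl4 like Gpr65 at 0.19, Ccl3 like Ms4a1 at 0.20, Ccl6 like Aloxe3 at 0.22, Ccl2 like Mmp13 at 0.32 and Ccl5 like Clec4a1 at 0.37.

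The remaining CC chemokine ligands, 14 genes, were low. Only 4 of them passed the filter, namely Ccl17, Ccl22, Ccl25 and Ccl27a, and their sum over all 14 ran from 19.8 to 43.5 FPKM across samples. None passed the threshold between Tumor-AM and Ctrl-AM, where 10.3% of all tested genes passed and the median log2 change of the 4 was -0.64. Ccl22, which attracts regulatory T cells through CCR4, lay lower in every Tumor-AM sample, at a mean of 6.86 against 11.4 FPKM (log2 change of -0.65, limma adjusted p = 0.0627). It passed with values rescaled to the same sum in every sample, as TPM (-0.80, limma adjusted p = 0.0263), which shifts the median of all genes downward here. It did not pass with quantile normalization (limma adjusted p = 0.0639) or median ratio scaling (limma adjusted p = 0.0625). Between Tumor-AM and Tumor-macrophage, 1 of the 4 passed, where 48.6% of all tested genes passed, 24.4% downward. It was Ccl25, which Tumor-macrophage held at 1.77 against 3.43 FPKM (log2 change of -0.72, limma adjusted p = 0.00999).

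Of 14 CC chemokine receptors, 6 passed the filter. In Tumor-AM against Ctrl-AM, 3 of these rose and none fell, where 7.11% of all tested genes rose and 3.18% fell, and their median log2 change was 0.47. Ccr2, the receptor of Ccl2, Ccl7 and Ccl12, went from 1.59 to 4.17 FPKM (log2 change of 0.97 ± 0.19, limma adjusted p = 0.00965). Ccrl2, which binds chemerin and does not signal, went from 76.5 to 168.6 FPKM (1.12 ± 0.21, adjusted p = 0.00893). Ccr2 was higher still in Tumor-macrophage, at 38.1 FPKM. Ccr1, the receptor of Ccl6 and Ccl9, was at 118 FPKM in Ctrl-AM and 115.3 FPKM in Tumor-AM (log2 change of -0.03, adjusted p = 0.943), and it was the receptor that fell in Tumor-macrophage, to 67.9 FPKM (-0.80 ± 0.18 from Tumor-AM, adjusted p = 0.00390). From Tumor-AM to Tumor-macrophage, 4 of the 6 rose and 1 fell, against 24.2% and 24.4% of all tested genes.

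All 20 genes on a list of inducers and regulators of chemokine genes were tested. In Tumor-AM against Ctrl-AM, 11 rose, none fell and 9 did not pass, with a median log2 change of 0.34, and 8 rose on rescaling to TPM. Over all tested genes 7.11% rose and 3.18% fell before this rescaling, with a median of 0.0142. On rescaling, fewer of all tested genes rose and more fell. Il1b, an inducer through NF-kappaB, went from 70.7 to 390.4 FPKM (log2 change of 2.45 ± 0.25, limma adjusted p = 0.000383). Tnfaip3, a feedback inhibitor of NF-kappaB, rose by 1.19 ± 0.18 (adjusted p = 0.00271), and Irf1, an interferon-induced factor, by 1.13 ± 0.18 (adjusted p = 0.00390). Tnf was at 36.5 and 28.1 FPKM and did not pass (-0.40, adjusted p = 0.148). From Tumor-AM to Tumor-macrophage, 11 rose and 2 fell, or 9 and 3 on rescaling to TPM. Before rescaling, 24.2% of all tested genes rose and 24.4% fell, and on rescaling fewer rose and more fell. Without rescaling, Socs3, an inhibitor of cytokine signalling, rose in this comparison by 2.82 ± 0.12 (limma adjusted p = 2.76e-08). Il6 fell by 2.04 on the log2 scale (adjusted p = 0.000208), and Il1b, at 477 FPKM, did not pass (0.26, adjusted p = 0.413).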

How the data were processed

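RNA from 9 samples was measured as FPKM. The authors prepared cDNA with SMART-Seq HT and Nextera libraries, sequenced single-end reads of 75 bases and mapped them to mm10. The submitters' processing notes name TopHat2 2.1.1, Bowtie2 and Cuffdiff 2.2.1. FPKM values were deposited per gene symbol and sample, without counts. The annotation, strand use and handling of reads with several matches are not given in the sources used here. FPKM leaves uncorrected the reads that highly abundant RNAs occupy.

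Depth was estimated from the steps between low FPKM values, of which between 68.7% and 73.7% per sample were whole multiples of 1 read, and no more than 9.31% were for a shifted grid. FPKM of the short transcripts Ccl8 and Ccl12 were 1.55 and 1.51 times larger per read than transcript length gives, a factor that bears on levels between genes. Values were analysed as log2(FPKM + 1), which makes changes of low genes look smaller. The 10686 genes that reached 1 FPKM in no fewer than 3 samples were fitted with limma 3.58.1 (R 4.3.3) with an intensity trend, and the spread was estimated over all 9 samples jointly. Two-sided p-values were adjusted over these genes (Benjamini-Hochberg, threshold 0.05). In data simulated for Tumor-AM against Ctrl-AM over 10686 genes, of which 200 changed, 99% of 4-fold and 89% of 2-fold changes were recovered, and 2.59% of calls were unchanged genes. The changes were given only to genes above a set level in Ctrl-AM, with normally distributed noise. Ccl8 and Ccl12, at means of 1.60 and 1.25 FPKM in Ctrl-AM, lay below that level, so the recovery does not cover them.

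Results were recomputed with a pseudocount of 0.1, without a filter, with a filter of 5 FPKM, quantile normalization, rescaling to TPM, median ratio scaling, a constant prior variance, 2 groups only, a 2-fold threshold, a replicate block and leaving out each sample. The genes named were the 10 members, genes on fixed lists and the 3 tested genes most like each tested member by profile. Some genes on these lists are counted with their list and not reported here by name. Ccl11 was named after its values were seen, for its position. The members and lists were chosen with earlier results of these data known. Python 3.11.15 was used for sequences and plots.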

Additional observations from a re-analysis of the deposited data

How the results depend on the processing

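In both comparisons with Tumor-macrophage, all 9 tested members passed the threshold with their direction kept in each of 18 alternatives. A 2-fold threshold left 1827 genes of 5191 from Tumor-AM and 2150 of 5860 from Ctrl-AM, and 208 of 1100 for Tumor-AM against Ctrl-AM. In the last comparison, leaving out 1 sample gave between 538 and 1254 genes and between 0 and 2 members. No member passed with no filter (Ccl8 at a limma adjusted p of 0.0759), with 2 groups only (0.0516), without Ctrl-AM 1 or without Tumor-AM 3; Ccl8 and Ccl4 passed without Tumor-macrophage 2, and Ccl4 in place of Ccl8 without Ctrl-AM 2 or Tumor-AM 2. The cause was not tested. Over 18 alternatives, 12 of which called Ccl8, its adjusted p ran from 0.00142 to 0.0958. The small change of Ccl2 turned to -0.000595 with quantile normalization, to -0.10 with TPM, and to -0.04 without Ctrl-AM 2, -0.04 without Ctrl-AM 3, -0.13 without Tumor-AM 2 and -0.04 without Tumor-AM 3. Leaving out 1 sample gave between -0.13 and 0.26 for Ccl2, between -0.16 (without Ctrl-AM 1) and 0.54 for Ccl5, and between -0.0917 (without Tumor-AM 2) and 0.73 for Ccl12. In all, 145 of 162 member values in this comparison kept their direction and side. TPM rescaling, which shifts the median of all genes by -0.11, -0.08 and -0.22 in the 3 comparisons, gave 475 genes higher and 824 lower against 760 and 340 for Tumor-AM against Ctrl-AM, 2129 and 3129 against 2588 and 2603 from Tumor-AM to Tumor-macrophage, and 2130 and 4409 against 2960 and 2900 from Ctrl-AM to Tumor-macrophage. Same-numbered samples shared deviations only in part (r from -0.0615 to 0.159), so numbers were not taken as pairs, although each Tumor-macrophage sample correlated best with the Tumor-AM sample of its number (r from 0.026 to 0.109), a hint from the data and not from the design. With the replicate number as a block, 938, 5069 and 5772 genes and 1, 9 and 9 members passed, and Ccl8 had an adjusted p of 0.0117. With 3 samples a group and few reads for Ccl8, Ccl12 and Ccl24 in AMs, small changes of these genes were not detectable.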
